A study of Homo sapiens with 2 samples.

Results

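The genes described here are 36 genes of the red cell: its glycophorins, membrane skeleton, blood group proteins, channels and transporters, surface receptors, and enzymes and factors of late maturation. They were given as a list of symbols, and every probe set that GEO's annotation of the array names for them was taken. They had 82 probe sets that name 1 gene and 4 that name several. Of the 36 genes, 32 had at least 1 unshared probe set and 27 gave a signal above the floor described below, among 12541 genes measured in all.

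RNA came from K562 cells, a human chronic myeloid leukaemia line that carries the BCR-ABL fusion. The control cells held the empty retroviral vector pMSCV, and the other cells a retrovirus that overexpresses PML4, 1 of the isoforms of the protein that builds PML nuclear bodies. Per the labels, G418 selection lasted 3 weeks for both, and they do not say whether either is a clone or a pool. Each group holds 1 array, so no value has a replicate, no difference could be tested, and every difference below is that between these arrays.

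A red cell keeps its shape through a spectrin lattice under the plasma membrane, which ankyrin, adducin, dematin and tropomodulin tie together and to transmembrane proteins. The same transmembrane proteins carry the blood group antigens, move gas, water and anions, and mark cells for or against removal. Erythropoietin signals through its receptor early in this lineage, and GATA1, which binds the GATA motif, and KLF1, which binds a CACCC motif, switch on many of these genes as erythroblasts mature. K562 cells make embryonic and fetal globin and can be driven part of the way along this path.

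Promoter windows are shown first for the 6 members that passed 1.5-fold and have a window in the RefSeq table (AQP3, CD47, EPOR, TMOD1, ADD2 and AQP1), since the largest differences lie there. RHAG, KEL and RHD follow as examples chosen because they hold a GATA match, so the windows shown are no sample of how often it occurs. Each is the 250 bases before the most upstream RefSeq start of the gene (GRCh38.p14), on the gene's strand, 5′ to 3′. Capitals mark a GATA match (AGATAA or TGATAA on either strand); no window shown held a CACCC match (CCACACCC on either strand).
AQP3: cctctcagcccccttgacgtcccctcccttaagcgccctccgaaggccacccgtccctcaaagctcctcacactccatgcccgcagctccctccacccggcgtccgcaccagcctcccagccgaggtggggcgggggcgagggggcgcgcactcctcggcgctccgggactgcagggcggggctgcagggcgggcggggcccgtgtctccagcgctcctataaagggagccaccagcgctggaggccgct
CD47: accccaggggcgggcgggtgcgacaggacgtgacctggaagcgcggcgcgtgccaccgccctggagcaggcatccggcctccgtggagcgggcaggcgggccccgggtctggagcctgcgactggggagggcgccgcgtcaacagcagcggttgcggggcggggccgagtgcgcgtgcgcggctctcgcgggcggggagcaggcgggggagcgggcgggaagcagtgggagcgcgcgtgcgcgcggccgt
EPOR: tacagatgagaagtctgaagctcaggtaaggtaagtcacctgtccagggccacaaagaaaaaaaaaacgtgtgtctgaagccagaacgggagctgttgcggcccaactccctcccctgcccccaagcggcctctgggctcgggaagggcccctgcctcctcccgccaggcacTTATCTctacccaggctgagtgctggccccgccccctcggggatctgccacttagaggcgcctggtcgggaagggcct
TMOD1: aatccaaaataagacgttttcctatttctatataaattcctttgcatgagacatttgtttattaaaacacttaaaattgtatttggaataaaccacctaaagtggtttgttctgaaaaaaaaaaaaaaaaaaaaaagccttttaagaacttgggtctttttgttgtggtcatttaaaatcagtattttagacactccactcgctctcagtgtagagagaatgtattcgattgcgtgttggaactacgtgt
ADD2: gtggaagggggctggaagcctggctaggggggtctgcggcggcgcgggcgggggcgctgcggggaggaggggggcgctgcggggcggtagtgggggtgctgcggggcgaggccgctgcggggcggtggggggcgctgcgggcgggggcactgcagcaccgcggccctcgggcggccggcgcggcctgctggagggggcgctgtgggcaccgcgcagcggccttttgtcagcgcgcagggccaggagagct
AQP1: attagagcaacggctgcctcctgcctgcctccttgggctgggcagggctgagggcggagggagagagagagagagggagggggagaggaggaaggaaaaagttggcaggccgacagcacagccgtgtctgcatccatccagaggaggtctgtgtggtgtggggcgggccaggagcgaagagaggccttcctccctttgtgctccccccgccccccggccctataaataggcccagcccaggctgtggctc
RHAG: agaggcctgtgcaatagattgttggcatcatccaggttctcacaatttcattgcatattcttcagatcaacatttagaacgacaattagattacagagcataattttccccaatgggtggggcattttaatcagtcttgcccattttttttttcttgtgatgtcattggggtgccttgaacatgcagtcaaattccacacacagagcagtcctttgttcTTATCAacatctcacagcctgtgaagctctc
KEL: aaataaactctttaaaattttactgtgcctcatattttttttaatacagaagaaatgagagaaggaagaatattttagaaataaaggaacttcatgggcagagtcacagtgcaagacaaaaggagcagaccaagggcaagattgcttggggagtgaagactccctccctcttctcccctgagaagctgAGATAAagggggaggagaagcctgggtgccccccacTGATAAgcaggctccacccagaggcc
RHD: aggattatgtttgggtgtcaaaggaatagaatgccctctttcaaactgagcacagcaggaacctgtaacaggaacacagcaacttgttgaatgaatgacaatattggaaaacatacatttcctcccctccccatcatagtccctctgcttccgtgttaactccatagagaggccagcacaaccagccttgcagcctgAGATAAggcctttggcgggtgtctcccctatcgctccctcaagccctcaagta

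These windows lie at chr9:33447594-33447843 (AQP3), chr3:108091032-108091281 (CD47), chr19:11384315-11384564 (EPOR), chr9:97500930-97501179 (TMOD1), chr2:70768201-70768450 (ADD2), chr7:30911603-30911852 (AQP1), chr6:49636840-49637089 (RHAG), chr7:142962364-142962613 (KEL) and chr1:25272236-25272485 (RHD). TMOD1, AQP1 and RHD lie on the plus strand and the others on the minus strand. Of the 6 members past 1.5-fold, EPOR held a GATA match, its first base 78 bases before the start, and the windows of the other 5 held none. The match lay 31 bases before the start in RHAG and 53 in RHD, and KEL held matches at 62 and 26. RHD and RHCE each have a further annotated start with the same match at 76, and over the 250 bases before it the genes differ at 2 positions.

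The RefSeq table held 50 such windows for 28 of the members, some of them overlapping starts of 1 gene. A GATA match was found in 15 of the 50 windows (30%), against 14.6% of all 35116 windows of the same length, and in 13 genes. These were ADD3, CD36, EPB42, EPOR, ERMAP, GYPB, GYPE, KEL, RHAG, RHCE, RHD, SPTB and TMCC2. A site that lies in overlapping windows was counted in each, as in RHD and CD36. The share of genes with a match was not computed over all genes. A CACCC match was found in 5 windows (10%), of ADD3, CD36, ERMAP and TRIM58, against 2.97% of all windows. The GATA match went with no single direction of difference: of 8 measured genes with one, RHD, RHAG, KEL and SPTB had a higher signal with PML4, and ERMAP, TMCC2, ADD3 and EPOR a lower one. Of 13 measured genes with windows but no GATA match, 4 had a higher and 9 a lower signal. A match is a run of letters and shows no binding.

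Signals are MAS5 intensities on a linear scale, which summarise a probe set and are scaled per array to a common target. The floor is 72.4, the middle value of the 54613 human probe sets when the arrays are pooled. A probe set above it on at least 1 array counts as measured, signals under it were raised to it, and the log2 difference is PML4 minus control vector. A gene takes its measured probe set of highest mean signal. Signals of different probe sets are not compared as levels of different genes. PML, the overexpressed gene, was at 216.3 with the empty vector and 1386.8 with PML4 in the probe set that stands for it, but of its 9 measured probe sets 5 read higher and 4 lower. The array labelled PML4 is therefore named by its label, and "with PML4" below stands for the array so labelled. K562 identity was read from GATA1, KLF1, TAL1, LMO2, HBE1, HBZ, TFRC and MYB, and 8 of 8 were above the floor on both arrays. Of these HBZ, the embryonic zeta-globin, passed 2-fold, at 1401.4 and 5465.5.

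The 27 measured members differed in both directions. On the PML4 array 11 had a higher and 16 a lower signal, and the median difference was -0.18 on the log2 scale, where that of all measured genes was -0.05. At least 2-fold differences, the size of a call here, were seen in 2 members: AQP3, an aquaglyceroporin, was higher and EPOR, the erythropoietin receptor, was lower. Over all measured genes 4.43% passed 2-fold, 1.23% higher and 3.21% lower, so 1 call each way among 27 genes is near the background. That background rested on 154 higher and 402 lower genes, and the split was 196 and 281 with quantile normalization and 190 and 286 with loess centring.

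By the probe sets that stand for the genes, smaller differences were more frequent among the members than among all genes. At 1.5-fold, 3 members were higher (AQP3, AHSP and CD47) and 5 lower (EPOR, TMOD1, ADD2, AQP1 and SLC4A1), 29.6% of those measured. Among all measured genes 17.5% passed 1.5-fold, 5.7% higher and 11.8% lower. Which members passed depended on the setting. With the mean over probe sets CD47, EPOR and AQP1 fell short, at 0.36, -0.21 and -0.36 on the log2 scale. With quantile normalization AQP1 and SLC4A1 fell short, at -0.53 and -0.46, while SPTB and XK passed, at 0.70 and -0.59. The share of all genes past 1.5-fold was not counted under those settings. The median size of the difference, without its sign, was 0.49 on the log2 scale for the members and 0.26 for all measured genes. For probe sets of 1 gene above the floor on both arrays, the log2 differences lay a median of 0.29 apart over 16239 pairs. That is the only spread these data give, and it holds no variation between repeat arrays or cultures. By that measure 13 members (48.1%) were lower and 5 (18.5%) higher by more than the spread, against 27.3% and 18.6% of all measured genes. This was not tested, because the arrays have no replicates.

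**Figure D1:**
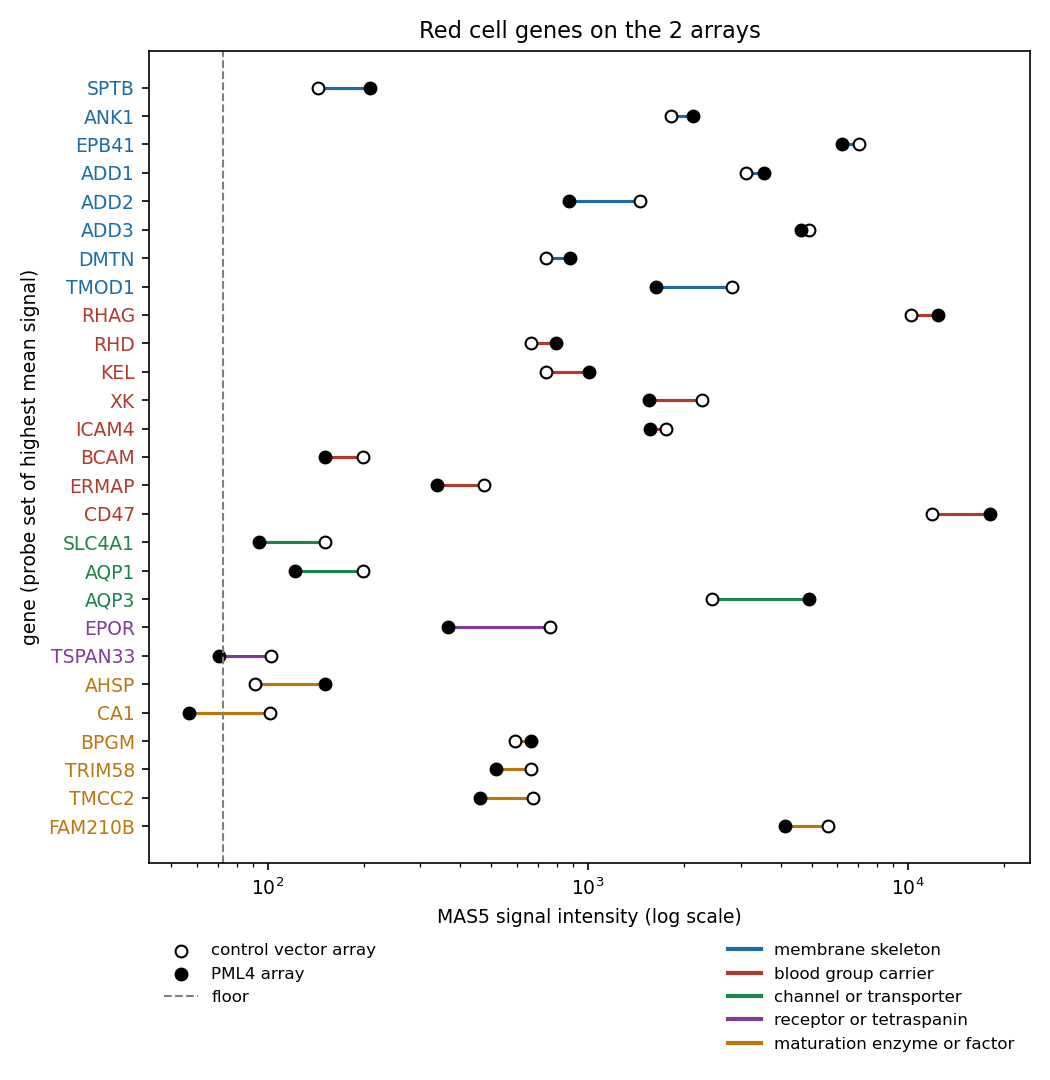
MAS5 signal intensity (log axis) of the 27 measured members on the control vector array (open) and the PML4 array (filled), each by the probe set of highest mean signal, with lines coloured by role and a dashed line at the floor of 72.4. EPOR, TMOD1 and ADD2 run to the left and AQP3 and CD47 to the right, while TSPAN33 and CA1 end under the floor on the PML4 array.

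Genes of the membrane skeleton did not differ as a block. Of 9 genes 8 were measured, 4 with a higher and 4 with a lower signal, none by 2-fold. TMOD1 encodes tropomodulin, which caps the pointed ends of the short actin filaments of the lattice. It was at 2829.3 with the empty vector and 1626.6 with PML4, 1.74-fold lower, and its other own probe set was at 1800.5 and 1251.7. Both readings were thus lower with PML4. Another probe set, annotated to TMOD1 and TSTD2 together, was at 1678.1 and 1821.1 and cannot be assigned to either gene.

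The adducins, which cap the barbed ends of those filaments and join spectrin to actin, differed from one another. ADD2, the beta subunit that pairs with alpha-adducin in red cells, was at 1459.7 and 871.9 without and with PML4, 1.67-fold lower. All 5 of its measured probe sets were lower, with a mean log2 difference of -0.63 ± 0.40 (SD over 5 probe sets). The largest of the 5, at 175.7 and 76, ended just above the floor. ADD3, the gamma subunit found in most tissues, was at 4917.5 and 4640.7, and all 4 of its probe sets were lower, between -0.46 and -0.08 on the log2 scale. ADD1, the alpha subunit, was at 3123 and 3556.9, but 2 of its 4 measured probe sets were higher and 2 lower. The beta subunit therefore had the only adducin difference past 1.5-fold.

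ANK1 and SPTB had higher signals in the probe sets that stand for them. ANK1 encodes the ankyrin that anchors spectrin to the anion exchanger. It was at 1815.6 with the empty vector and 2136.6 with PML4, and 5 of 7 probe sets were higher. The readings spread widely, from -0.60 to 0.75 on the log2 scale, with a mean of 0.19 ± 0.47 (SD over 7 probe sets). The lowest of them, at 1555.7 and 1024.5, is the one left without _x_at and _s_at probe sets, so the direction of ANK1 turns there. SPTB, the erythroid beta-spectrin, was dim, at 143.8 and 209.4, 1.46-fold higher, and its second one lay below the floor throughout. DMTN, the actin-bundling dematin, was at 741.7 and 880, and EPB41, which strengthens the spectrin and actin junction, was at 7015.8 and 6203.8. None of ANK1, DMTN and EPB41, by the probe sets that stand for them, differed by more than 0.29, the spread between probe sets of 1 gene. EPB42, which binds the anion exchanger and ankyrin, lay under the floor on both arrays.

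**Figure D2:**
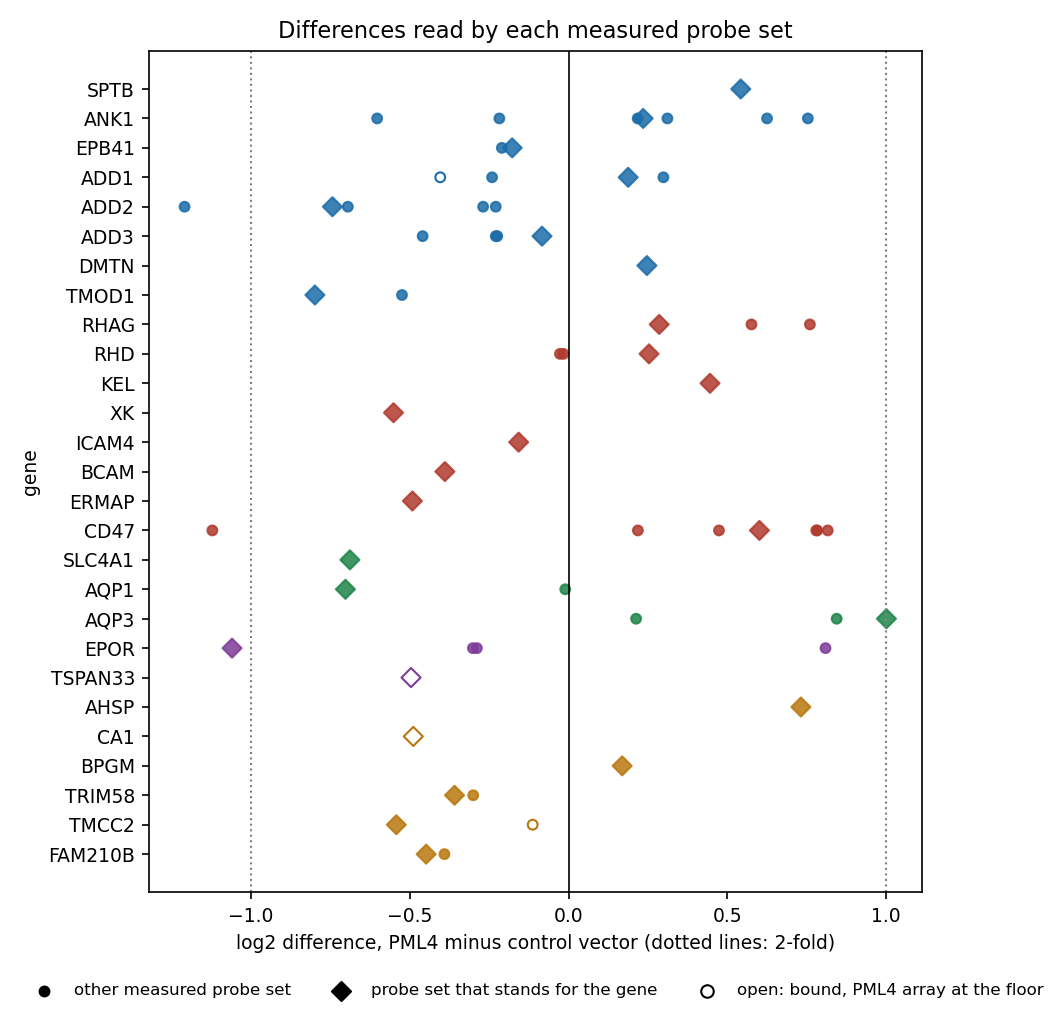
Log2 difference (PML4 minus control vector) of each measured probe set of the members, 1 gene per line and coloured by role, with diamonds for the probe set that stands for the gene, open symbols for bounds with the PML4 array at the floor, and dotted lines at 2-fold. All 5 readings of ADD2 lie left of 0 and all 3 of RHAG and of AQP3 right of it, while those of ANK1, CD47 and EPOR lie on both sides.

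Blood group carriers also split evenly. Of 9 genes 8 were measured, 4 with a higher and 4 with a lower signal, none by 2-fold, and the median was 0.05 on the log2 scale. RHAG, the glycoprotein that the Rh complex needs to reach the surface and that conducts ammonia or ammonium, was read by 3 probe sets. They were at 10206.4 and 12438.7, at 3068.4 and 4573.9, and at 4594.9 and 7780.8 without and with PML4. Each was higher with PML4, by 1.22-fold, 1.49-fold and 1.69-fold, with a mean log2 difference of 0.54 ± 0.24 (SD over 3 probe sets). RHAG thus differed in 1 direction in each reading, although the brightest one showed the smallest difference.

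CD47, the receptor ligand that restrains phagocytosis and associates with the Rh complex in red cells, was at 11862.3 with the empty vector and 17991.9 with PML4, 1.52-fold higher. The next brightest probe set was at 7607.4 and 13393.1, 1.76-fold higher, and the one after it at 3670.4 and 5096.7, 1.39-fold. Of its 7 probe sets 6 were higher. The exception was at 326.6 and 150.1, 2.18-fold lower, which leaves a mean of 0.36 ± 0.69 (SD over 7 probe sets). The 3 brightest readings of CD47 were therefore all higher, and the disagreement came from a dim one. The other dim ones were higher too, at 164.8 and 283, at 320.7 and 373.1, and at 390.3 and 671.5.

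The genes of the Rh antigens themselves had close signals on both arrays. RHD, which carries the D antigen, was read by 3 probe sets of its own, at 666.6 and 794.6, 494 and 488.4, and 462.7 and 454.1 without and with PML4. RHCE, which carries the C and E antigens, had no probe set of its own. A pair of probe sets annotated to both genes was at 839.5 and 1002.1 and at 784.4 and 801.4, and these cannot be assigned to either. RHD and RHCE are close paralogs, so the own probe sets of RHD may also hold RHCE signal. None of these 5 readings differed by more than 0.29 on the log2 scale.

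KEL and XK, whose proteins are joined by a disulfide bond at the red cell surface, differed in opposite directions. KEL, the Kell endopeptidase, was at 740.9 with the empty vector and 1008.9 with PML4, 1.36-fold higher. XK, its membrane partner, was at 2267 and 1547.2, 1.47-fold lower. Each was read by 1 probe set. ERMAP, the erythroblast protein that carries the Scianna antigens, was at 475.1 and 337.9, 1.41-fold lower. BCAM, the Lutheran laminin receptor, was dim, at 198.3 and 151.4, and its other probe set lay under the floor on both arrays. ICAM4, the Landsteiner-Wiener adhesion protein, was at 1749.1 and 1568.6. Of these genes only ICAM4 differed by less than the spread between probe sets.

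Of 4 channels and transporters 3 were measured, 1 higher and 2 lower. AQP3, which passes water and glycerol, was at 2444.2 with the empty vector and 4891.6 with PML4, 2.001-fold higher, and 98.8% of measured genes had a lower signed difference. Its other probe sets were at 209.5 and 376.1, 1.80-fold higher, and at 340.7 and 394.8, 1.16-fold higher. All 3 readings were higher, and their mean log2 difference was 0.69 ± 0.42 (SD over 3 probe sets). The call sits on the threshold: with quantile normalization and with loess centring alike the log2 difference was 0.96. AQP3 had the largest value upward of the members as reported, but AHSP exceeded it with quantile normalization, also at 0.96, and with the mean over probe sets, at 0.73 against 0.69.

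SLC4A1 and AQP1 had lower signals near the floor, neither by 2-fold. SLC4A1, the anion exchanger of mature red cells, was at 151 with the empty vector and 93.7 with PML4, 1.61-fold lower, and its other probe set lay below the floor. AQP1, the main water channel of red cells, was at 198.7 and 122.1, 1.63-fold lower, while its second probe set was at 84.6 and 84, so the difference of AQP1 is -0.01 without _s_at probe sets. SLC14A1, the urea transporter with the Kidd antigens, was under the floor in both of its probe sets. The lower readings of SLC4A1 and AQP1 thus lie under 3 times the floor, where genes passed 2-fold most often: 9.50% of the dimmest quartile of measured genes did, against 1.21% of the brightest. The PML4 array was also the dimmer one, with a median human probe set at 64 against 80.6 on the control array and 48.1% against 51.9% of them above the floor. With quantile normalization the log2 differences of SLC4A1 and AQP1 were -0.46 and -0.53, against -0.69 and -0.70 as reported, and that of TSPAN33, described below, was -0.23 against -0.50.

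EPOR, the other call, was read in both directions by its probe sets. The probe set that stands for it was at 760.3 with the empty vector and 364.8 with PML4, 2.08-fold lower, and 2.66% of measured genes had a lower value. The others were at 524.4 and 425.6, at 314.3 and 257.3, and, in the opposite direction, at 164.2 and 287.7. The remaining probe set of EPOR, at 2.6 and 2.1, lay below the floor on each array. Over the 4 measured ones the mean log2 difference was -0.21 ± 0.77 (SD over 4 probe sets), and with the probe set of median difference it was -0.30. The call therefore rests on 1 of 4 readings. As reported EPOR had the lowest value of the members, but TMOD1 was lower with the floor at the 75th percentile, at -0.80 against -0.71, as it was with either of these other choices of probe set. A probe set annotated to EPOR and RGL3 together was at 541.8 and 504.1.

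The other surface genes of this group were at or near the floor. CD36, a scavenger receptor of erythroid precursors and other cells, was under the floor in all 5 of its probe sets on both arrays, where the highest signal was 35.9. TSPAN33, an erythroblast tetraspanin, was at 102.1 with the empty vector and 70.6, under the floor, with PML4, at least 1.41-fold lower.

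Of 8 maturation genes 6 were measured, 2 with a higher and 4 with a lower signal, none by 2-fold. FAM210B, a mitochondrial protein that aids heme synthesis in erythroblasts, was at 5638 with the empty vector and 4132.1 with PML4, 1.36-fold lower. Its second probe set, at 1260.4 and 961.3, was 1.31-fold lower. TMCC2, a transmembrane coiled-coil protein, was at 672.8 and 462, 1.46-fold lower, and its dim second probe set was at 78.3 and 11.3, a bound in the same direction. TRIM58, a ubiquitin ligase of late erythroblasts that acts on dynein, was at 664.1 and 517.8, 1.28-fold lower, and at 178.3 and 144.8 in its other probe set. All 3 maturation genes with a pair of measured readings thus had lower signals in both.

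AHSP, the chaperone of free alpha-globin, went the other way near the floor, at 91 with the empty vector and 151.1 with PML4, 1.66-fold higher. BPGM, which makes the phosphate that lowers the oxygen affinity of hemoglobin, was at 593.1 and 666.7. CA1, a carbonic anhydrase of late red cells, was at 101.6 with the empty vector and 57, under the floor, with PML4, at least 1.40-fold lower. CA2, the other abundant red cell carbonic anhydrase, and ALOX15, the lipoxygenase that helps to break down mitochondria in reticulocytes, were under the floor on both arrays. GYPB, GYPC and GYPE, the glycophorins, are named by no probe set in the annotation table used.

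Genes read by several probe sets showed how far the directions hold within a gene. Of 15 such members 10 had all measured readings in 1 direction, 2 higher (RHAG and AQP3) and 8 lower (EPB41, ADD2, ADD3, TMOD1, AQP1, TRIM58, TMCC2 and FAM210B). Over all measured genes with several readings the share was 51.5%, against 66.7% here. The genes were not matched by their number of readings, and the difference in share was not tested. The second readings of AQP1, -0.01, and of TMCC2, a bound of -0.11 on the log2 scale, were small. Of 64 measured probe sets of the members, 26 were higher and 38 lower, 1 of them higher and 3 lower by at least 2-fold, where 1.3% and 3.22% of all measured probe sets passed.

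**Figure D3:**
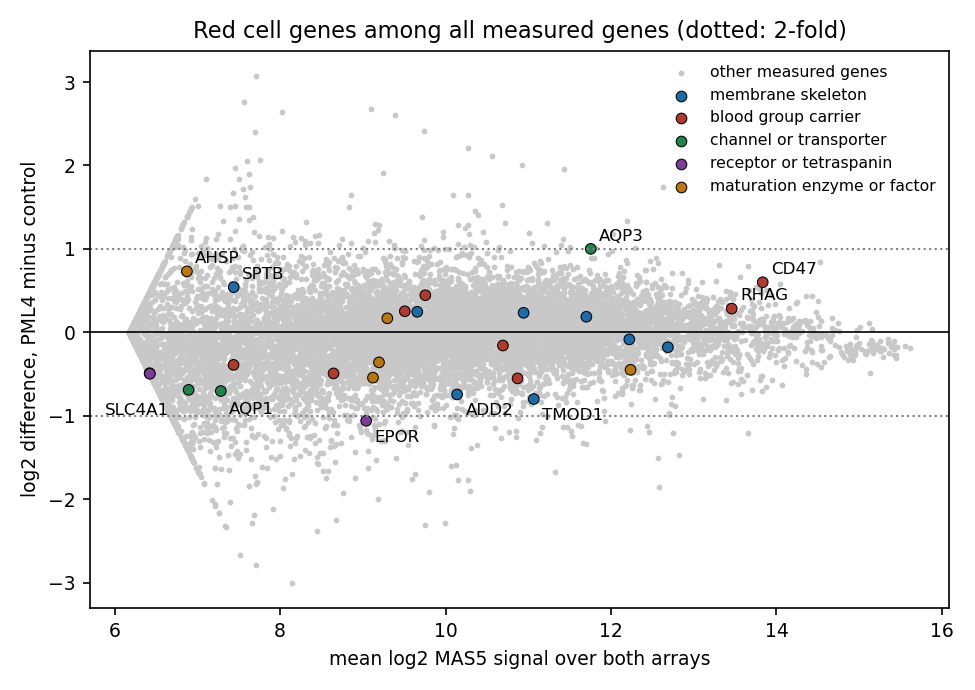
Log2 difference (PML4 minus control vector) against mean log2 signal for all 12541 measured genes (grey) and the 27 measured members (coloured by role), with dotted lines at 2-fold; the slanted edge at low signal is made by the floor. Among the members only AQP3 and EPOR reach the dotted lines, and CD47 and RHAG lie at the right edge, higher than 0.

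Related genes that are not among the 36 gave a mixed picture too. Of 23 other red cell membrane and blood group genes 19 were measured, 12 higher and 7 lower, with a median of 0.15 on the log2 scale. That median lay between -0.02 and 0.01 with the 25th percentile floor and with the other choices of probe set. CD44, an adhesion receptor, at 988.3 and 2086.2, and ABCG2, a porphyrin exporter, at 230 and 51.2, passed 2-fold. Of 20 other maturation genes 18 were measured, 9 higher and 9 lower, none by 2-fold, with a median of 0.04. Of 15 genes that act with or below EPOR 14 were measured, 5 higher and 9 lower, with a median of -0.15. SOCS3, a feedback inhibitor of cytokine receptors, was the one past 2-fold, at 953.9 with the empty vector and 388.8 with PML4. JAK2, the kinase bound to EPOR, was at 524.9 and 435.5, STAT5A, its target, at 4303.8 and 4665.3, and STAT5B at 3908.5 and 2934.7.

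Of 14 erythroid transcription regulators, all measured, 11 had a higher and 3 a lower signal, against 44.7% and 55.3% of all measured genes. The median of 0.23 on the log2 scale was 0.04 with the mean over probe sets and -0.05 with the probe set of median difference. LDB1, a cofactor of GATA1 complexes, was the one gene past 2-fold, at 582.8 and 1190.1. GATA1 was at 2333.2 and 2821.9, KLF1 at 3062.8 and 3196.4 and TAL1 at 2679.9 and 1861.8. Whether this list differs from the members was not tested.

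Markers of other lineages were read beside these results, and each list held differences in both directions. Summed signals weigh bright probe sets most. Of 13 megakaryocyte markers 7 were measured, 2 higher and 5 lower, and their sum was 3278.8 with the empty vector and 3223.3 with PML4. F2R, which responds to thrombin, was at 764.2 and 333.1, and TUBB1, the platelet tubulin, at 361 and 885.1. GP9, ITGB3, GP1BB, PPBP, THBS1 and VWF lay under the floor or had no unshared probe set. Of 12 myeloid markers 6 were measured, 2 higher and 4 lower, at a sum of 4701.5 and 4318.7. CSF3R, a granulocyte growth factor receptor, was at 500.3 and 137.3, FCER1G, a signalling chain of Fc receptors, was at 63.3 and 171.5, and MPO, ELANE, PRTN3, CD14, S100A8 and S100A9 were not above the floor. Of 7 lymphoid markers 5 were measured, 2 higher and 3 lower. Their median was -0.27 on the log2 scale. With the floor at the 75th percentile, 465, it was 1.01, which is the value of CD3D. The probe sets that stand for the other lymphoid markers lay under that floor. The sum of the 5 lymphoid markers, 3076.4 and 5567, was mostly CD3D, a T cell receptor chain, at 2478 and 4996.3. CD3G was 2.61-fold higher and CD5 at least 2.22-fold lower, and MS4A1 and CD79B were not measured. The K562 markers, 5 of which are also among the regulators, summed to 64361.4 and 94094.7, with TFRC alone at 17625.2 and 31653.7. Of these markers 7 were higher and 1, TAL1, was lower. Their median was 0.38 on the log2 scale, and 0.14 with the probe set of median difference. The part of these shifts in the members' differences was not tested, and fewer cells of a type cannot be told apart from less RNA per cell in bulk RNA.

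**Figure D4:**
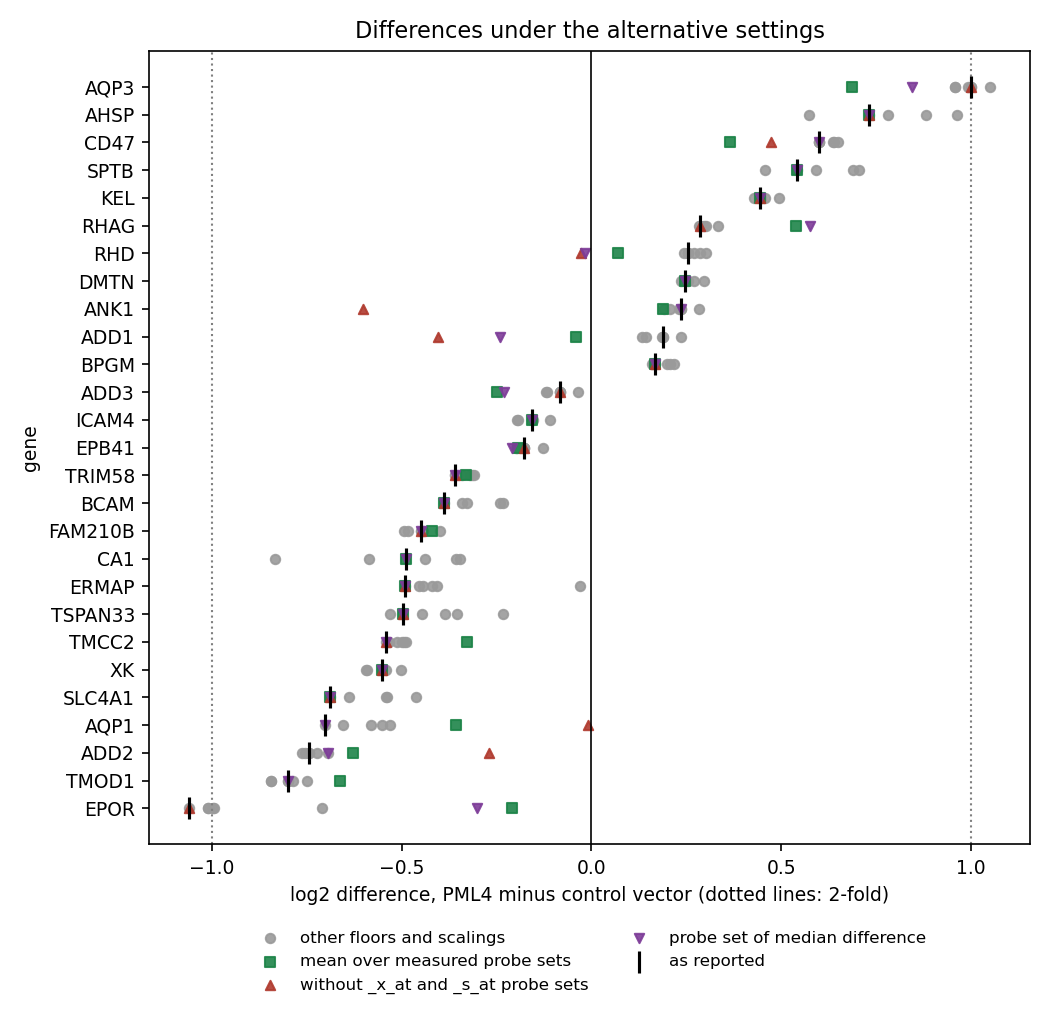
Log2 difference (PML4 minus control vector) of each measured member as reported (bars) and under 9 other settings, in order of the reported value; grey points are other floors and scalings, coloured shapes other choices of probe set. RHD, ANK1 and ADD1 cross 0 with another choice of probe set, and the values of EPOR, AQP1 and ADD2 shrink most.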

How the data were processed

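The authors deposited MAS5 signal intensities on a linear scale, 1 value per probe set and array, with MAS5 named per the submitters' processing notes; no version of it is given in the sources used here. Detection calls were not used here. Genes were named from GEO's array annotation, updated through Entrez identifiers to RefSeq (GRCh38.p14) symbols, and only from probe sets with 1 gene.

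From the deposited intensities, differences, counts and medians were computed in Python 3.11.15 with pandas 2.3.3 and statsmodels 0.14.6, and the calculation was tested on simulated data. The simulated shifts were larger than any difference of the members and were set in genes well above the floor. That test therefore does not cover small differences or dim genes. The number of arrays limits the precision. With 1 array a group no test, p-value or standard error is given; an SD over probe sets covers repeat readings on the same arrays only. Members, lists, alternatives and the naming rule were chosen with earlier results of these data known. All 36 members are named; other genes are named from the lists where they passed 2-fold or a result turns on them. The alternatives tried were a floor at the 25th or the 75th percentile, a pseudocount of 32 without a floor, median centring, quantile normalization, loess centring (span 0.4), 3 other choices of probe set, and calls at 1.5-fold and 3-fold. Some markers of other lineages are not reported here.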

Additional observations from a re-analysis of the deposited data

How the results depend on the processing

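The counts of members past 2-fold, 1 higher and 1 lower, are not stable. Without a floor, after quantile normalization, with the mean over probe sets and with the probe set of median difference there were 0 higher and 0 lower, 0 in all. Raising the floor to the 75th percentile, 0 were lower and 1 was past 2-fold in all, and with loess centring 0 were higher and 1 was past it in all. At 1.5-fold 3 were higher and 5 lower, 8 in all, and at 3-fold 0 each way and 0 in all. Median centring, the floor at the 25th percentile and dropping the _x_at and _s_at probe sets left 1 call each way. The probe set that stands for EPOR is an _f_at one and that of AQP3 a plain _at one. Dropping the other types could therefore remove neither call. The members' median log2 difference stayed between -0.31 and -0.06 over 9 alternatives. Of 27 members 24 kept their direction in each of the 9 that could measure them, 8 higher and 16 lower; RHD, ANK1 and ADD1 did not. Of 231 values of single members 218 stayed within 0.29 of the reported one, and 10 of the 13 that moved further came from the choice of probe set. Much of this agreement was fixed in advance. A gene with 1 measured probe set cannot change with the mean or the median choice, and another floor leaves most values as they were. The same counts were not made over all measured genes. The background moved as well, from 4.43% of genes past 2-fold to 15.2% under the 25th percentile floor and 1.42% under the 75th. No paired analysis was possible because each group has 1 array. Signal near the floor limits SPTB, BCAM, SLC4A1, AQP1, AHSP, CA1 and TSPAN33 most.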

Other observations

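The members lay on the wide side of the measured genes at each level of signal, given here as values without a test. In the brightest quartile of measured genes 8 members had a median difference, without its sign, of 0.37 on the log2 scale, where all genes of that quartile had 0.20. The 8 were ADD1, ADD3, AQP3, CD47, EPB41, FAM210B, RHAG and TMOD1. In the next quartile 6 members had 0.35 against 0.23, in the third 6 had 0.43 against 0.31, and in the dimmest 7 had 0.54 against 0.38. The signed medians of the members were 0.05 and 0.04 in the upper quartiles and -0.43 and -0.49 in the lower ones, against 0.05, 0.02, -0.08 and -0.24 for all genes in the same order.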
